A study of Mus musculus with 50 samples.

Results

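The comparison sets the spleens of C57BL/6 control mice taken 3 h after an injection of CpG oligonucleotide against those of untreated C57BL/6 control mice. It compares 8 of the 50 arrays of the study, 4 per group, and was chosen by the array titles. All mice were female. The control mice carry no altered allele in the labels. They stand beside a TNF-KO group of the same strain, which lacks the gene for tumour necrosis factor and has its own 4 untreated and 4 CpG arrays. Those TNF-KO arrays also entered the test, where they add to the estimate of the spread. A BALB/c series followed 6 times after CpG with 6 untreated arrays and 4 arrays of a control oligonucleotide. The labels give neither the age of the mice nor whether controls and TNF-KO mice were littermates. The series text gives intraperitoneal injection of 400 ug of oligonucleotide, while the C57BL/6 labels carry no dose. Each array stands for 1 of 4 independent experiments per group. The label of the hybridised RNA reads untreated on the CpG-titled arrays too, so the grouping rests on the titles. No control oligonucleotide was given to C57BL/6 mice among the arrays used here, so the comparison holds the injection and the sequence of the oligonucleotide together.

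Unmethylated CpG dinucleotides in DNA are bound by Toll-like receptor 9 (Tlr9) in the endosomes of plasmacytoid dendritic cells, B cells and, in mice, other myeloid cells. The receptor signals through the adaptor Myd88. One branch of the pathway leads to NF-kB and the genes of cytokines and chemokines, and another to IRF7 and the type I interferons, which in turn raise a large set of antiviral genes through factors such as STAT2 and IRF9. Tumour necrosis factor is an early product of the NF-kB branch.

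The CpG treatment was an equimolar mixture of a pair of phosphorothioate oligonucleotides, shown here because their CG dinucleotides (capitals) are the agent tested. Each is read 5′ to 3′.
ODN 1555: gctagaCGttagCGt
ODN 1466: tcaaCGttga
ODN 1555 has 15 bases with 2 CG dinucleotides, and ODN 1466 has 10 bases with 1.

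Each value is the log2 ratio of a gene's signal in spleen RNA (Cy5) to that in a common reference of pooled mouse RNA (Cy3), centred on the median of its array. A value of 0 therefore means the level of a typical gene relative to the reference, and a difference of 1 between groups is a 2-fold change. Differences were tested with limma, which gives each a standard error (SE) and a p adjusted over all genes by the Benjamini-Hochberg method; a gene is called here where that p is under 0.05. The 8 arrays held 27619 to 30305 probe values each, and every array correlated with its own group at a median r of 0.878 to 0.924. The spleen RNA also carried signal of the pancreas, which lies against the spleen. The mean of the 15 pancreas genes with a value on every C57BL/6 array read 6.48, 0.41, 0.99 and 6.08 on untreated arrays 1 to 4 and 6.48, 2.98, 6.10 and 6.21 on CpG arrays 1 to 4. Untreated arrays 2 and 3 and CpG array 2 are thus the arrays with little pancreatic signal. None of the 23 pancreas genes measured passed limma's test (median change 1.76), and 1 had an unadjusted p under 0.05.

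The label of the mutant mice was checked on Tnf itself. Tnf read 0.78, 0.62, 0.78 and 0.58 on the 4 untreated and 4.30, 3.61, 4.59 and 3.16 on the 4 CpG control arrays. In TNF-KO mice it read -0.61, -0.09, -0.29 and 0.09 without and 0.43, -0.34, -0.44 and -0.30 with CpG. The rise was 9.36-fold in control mice (log2 change 3.23, SE 0.27, adjusted p = 6.9e-07), while the change in TNF-KO mice was 0.06. The difference between these responses was 3.17 (SE 0.38, adjusted p = 0.0018). Lists of spleen cell markers were read too, without settling the tissue, since each gene is set against its own level in the reference. The means of the B cell list (Cd79b, Ms4a1, Cd22 and others) lay at 4.21, 4.20, 4.27 and 4.01 on the untreated arrays, and those of the red pulp macrophage list, cells that recycle iron in the spleen, at 3.61, 3.51, 3.43 and 3.46.

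Of 14953 genes tested, 1136 passed an adjusted p of 0.05 (7.60%). Of these, 731 were higher after CpG (4.89%) and 405 were lower (2.71%). Every count of list members below stands against these shares of all genes. A count near them is not read as a result about its list. At a change of at least 2-fold, 373 were higher and 136 lower, and 82 rose and 13 fell by at least 4-fold. Of the 13638 genes with a value on all 8 arrays, 8.73% read higher on every CpG array than on any untreated array and 6.37% lower. The median change of all genes was -0.0062. The largest rise was that of Ccl4, a chemokine that draws monocytes and lymphocytes. The largest fall was that of Slc40a1, which encodes ferroportin, the exporter of iron from cells. CpG array 4 stood nearest the untreated arrays in 23 of the 30 largest changes named below, and without it 1122 genes passed. The spleen is a mixed tissue, and fewer cells of a type and less RNA per cell cannot be told apart in these data.

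**Figure D1:**
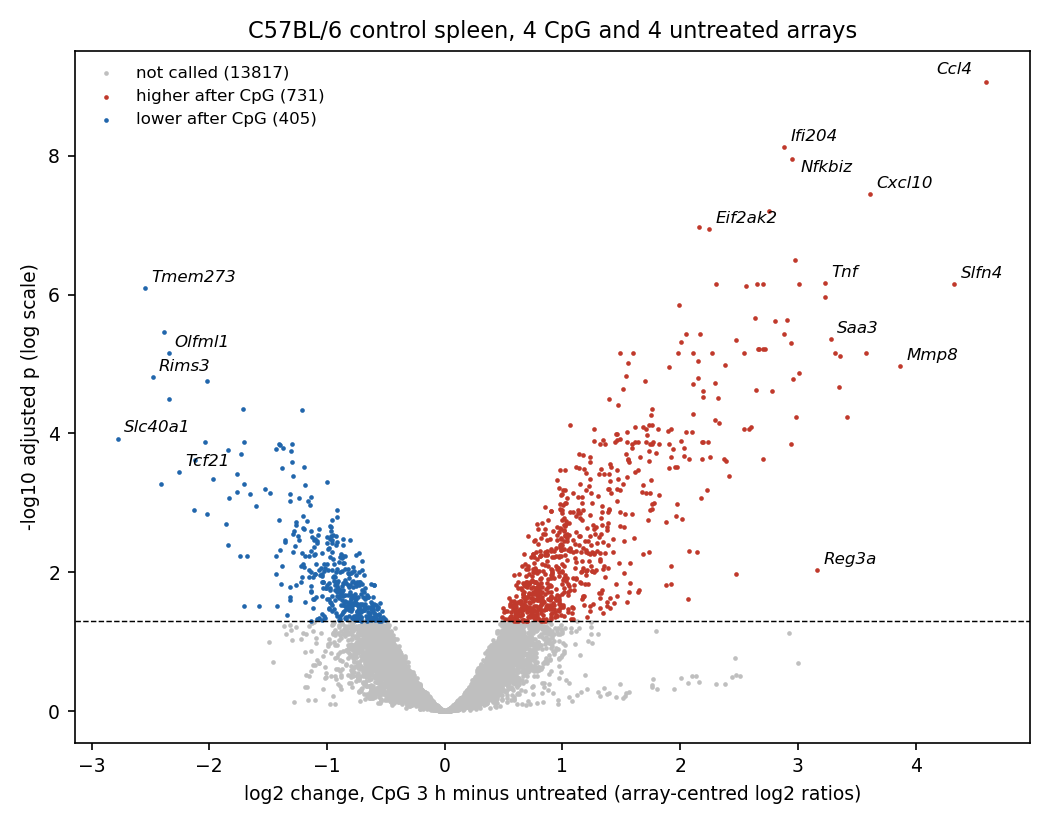
Log2 change between CpG and untreated C57BL/6 control arrays (x axis) against -log10 of the adjusted p (y axis) for 14953 genes, with the threshold of 0.05 as a dashed line. Red points are the 731 genes higher after CpG and blue points the 405 lower, and the rises reach further than the falls.

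The 15 largest rises were those of Ccl4, Slfn4, Mmp8, Cxcl10, Ccl12, Mt2, Ifit3, Hdc, Lipg, Saa3, Ccl3, Tnf, Reg3a, Socs3 and Usp18. They ranged from 3.01 for Usp18 to 4.60 for Ccl4. Of these, Ccl4, Cxcl10, Ccl12 and Ccl3 are chemokines. The 15 largest falls were those of Slc40a1, Tmem273, Rims3, Gdf6, Acot1, Olfml1, Sned1, Tcf21, Gpd1, Gas1, Abcg3, Cmbl, Hpgd, Plekha6 and Gpr34, from -2.77 to -1.85. Both sets of 15 were taken from called genes whose arrays do not overlap between groups. A lack of overlap given below for any of these genes is therefore no added support. Reg3a, a secreted lectin made in the gut and pancreas, needs a caution. It read 0.56, no value, 0.15 and 0.45 on the untreated and 3.99, 2.25, 4.59 and 3.38 on the CpG arrays (log2 change 3.17, SE 0.70, adjusted p = 0.00925). Untreated array 2, which gave no value, and CpG array 2, its lowest CpG value, are arrays with little pancreatic signal, while untreated arrays 1 and 4 have much of it and low Reg3a. With the pancreas mean as a covariate the change was 2.91 (adjusted p = 0.012). In that fit 1015 genes passed, 900 of them among the 1136. It ended 8 calls of named genes: Klra10 (adjusted p = 0.0524), Irf7 (0.0866), Ccl7 (0.0524), Cx3cl1 (0.0518), Cxcl16 (0.0505), Xcl1 (0.0554), Cxcr3 (0.0828) and Cd5 (0.0554).

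**Figure D2:**
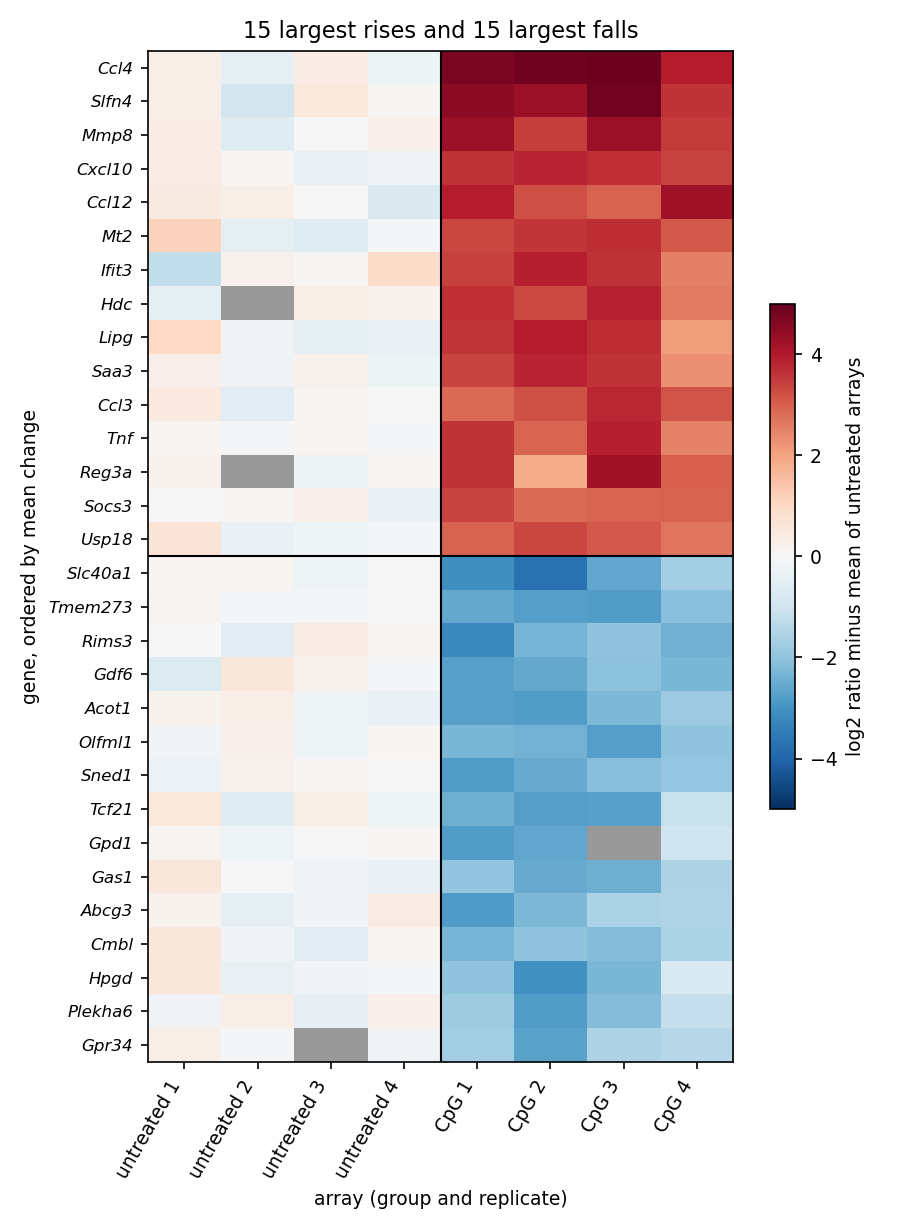
Log2 ratio of each gene minus its mean over the 4 untreated arrays (colour) for the 15 largest rises and 15 largest falls (rows) on the 8 arrays (columns); grey marks a missing value. The genes were chosen for not overlapping between groups, so the columns show only how far single arrays differ: CpG array 4 lies nearest the untreated mean in 23 of the 30 rows.

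Most interferon-stimulated antiviral genes were higher after CpG. Of the 48 genes listed, 41 were measured, and 32 were higher and 0 lower, against 4.89% and 2.71% of all genes. Their median change was 1.64. The mean level of the list was 1.34, 1.26, 1.17 and 1.31 on the untreated arrays and 3.00, 3.17, 3.00 and 2.56 on the CpG arrays. CpG array 4 had the lowest of the CpG values, above every untreated value.

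Ifit3, which with its relatives binds viral RNA lacking host cap marks, read 0.15, 1.61, 1.45 and 2.31 without and 4.78, 5.27, 5.00 and 3.89 with CpG. This was a 10.2-fold rise (log2 change 3.36, SE 0.36, adjusted p = 7.77e-06). Slfn4, a Schlafen gene of myeloid cells, went from -0.49, -1.69, -0.25 and -0.72 to 3.74, 3.55, 4.05 and 2.84 (20.1-fold; log2 change 4.33, SE 0.37, adjusted p = 7.06e-07). Usp18, the protease that removes ISG15 from proteins and dampens interferon signalling, read 0.42, -0.55, -0.41 and -0.28 and then 2.75, 3.13, 2.87 and 2.47 (log2 change 3.01, SE 0.34, adjusted p = 1.35e-05). The groups of these 3 genes did not overlap, as the rule for naming them required. Untreated array 1 had the lowest Ifit3 but the highest Usp18. Among the sensors of nucleic acid, Ifih1, the cytosolic receptor MDA5 for long double-stranded RNA, read 1.97, 2.13, 1.90 and 1.65 on untreated and 4.37, 5.09, 4.71 and 4.30 on CpG arrays (log2 change 2.70, SE 0.23, adjusted p = 6.96e-07). Ifi204, a DNA-binding member of the HIN200 family, read -0.44, -0.85, -0.70 and -0.58 and 2.15, 2.46, 2.41 and 1.93 (log2 change 2.88, SE 0.17, adjusted p = 7.57e-09). Both sensors were higher on every CpG array than on any untreated array. Eif2ak2, the kinase PKR that stops translation on double-stranded RNA, rose 4.74-fold (log2 change 2.24, SE 0.16, adjusted p = 1.14e-07). Mx2, an antiviral GTPase, changed by 2.70 (SE 0.28). Oasl1, a relative of the 2',5'-oligoadenylate synthetases, changed by 2.88 on the probe used (SE 0.28) and by 1.32 on its other probe (adjusted p = 0.00631). Some members did not pass. Rsad2, which encodes viperin and was picked out after its value was seen, changed by 0.25 (SE 0.50, adjusted p = 0.83).

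The interferon-inducible GTPases, which coat and break the vacuoles of intracellular pathogens, were called higher in 11 of 15 measured members and lower in 0 (median 1.18). Gbp6 read 1.80, 1.10, 1.18 and 1.60 without and 4.63, 4.60, 4.76 and 3.52 with CpG. It rose 7.78-fold (log2 change 2.96, SE 0.34, adjusted p = 1.65e-05), with CpG array 4 below the other CpG arrays. Gbp2 rose 4.58-fold (log2 change 2.19, SE 0.30, adjusted p = 0.000133), Iigp1 4.57-fold (log2 change 2.19, SE 0.26, adjusted p = 2.4e-05), Igtp 3.80-fold (log2 change 1.93, SE 0.28, adjusted p = 0.000216) and Gvin1 2.62-fold (log2 change 1.39, SE 0.23, adjusted p = 0.000632). The genes of the Gbp, Ifi200 and Slfn families are near-identical in places, and whether their probes also read a relative was not tested.

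None of the 12 measured genes for interferons and their receptors passed limma's test (median -0.05), and 2 had an unadjusted p under 0.05. The alpha interferon genes Ifna1, Ifna2, Ifna5, Ifna9 and Ifna11 changed by 0.08, -0.06, -0.20, 0.26 and 0.07, with SEs of 0.17 to 0.33. Ifnab read -0.09, 0.13, 0.39 and -0.25 without and -0.09, -0.25, -0.01 and -0.29 with CpG, so its groups overlapped (log2 change -0.21, SE 0.28, adjusted p = 0.733). Ifng, the type II interferon, read 2.84, 2.93, 2.35 and 1.91 and 2.91, 2.74, 2.07 and 2.15, with the groups overlapping (log2 change -0.04, SE 0.26, adjusted p = 0.96). The receptor chains Ifnar1, Ifnar2, Ifngr1 and Ifngr2 changed by -0.09, -0.93, -1.02 and 0.17. The lowest adjusted p among these 4 was 0.11, for Ifnar2, whose other probe changed the other way (0.95). With the pancreas covariate Ifnar2 passed (log2 change -1.20, adjusted p = 0.0358). The gene for interferon beta was not analysed here.

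The transcription factors of the interferon pathway named here changed by 0.19 to 1.59, against a median of 1.64 for the antiviral list. In the IRF family 4 of 8 measured members passed, all higher; the number was 1 without CpG array 1, 2 or 3 or untreated array 2 or 4, and 2 without untreated array 1. Irf9, the DNA-binding part of a complex with STAT2, read 2.10, 1.95, 2.07 and 2.19 without and 2.98, 2.99, 3.06 and 2.90 with CpG, with no overlap (log2 change 0.91, SE 0.16, adjusted p = 0.00132). The other probe of Irf9 changed by 0.47 and did not pass (adjusted p = 0.438). Irf7, which drives interferon alpha genes downstream of Tlr9, changed by 1.05 (SE 0.30, adjusted p = 0.0368). Irf1 changed by 0.94 (adjusted p = 0.0237). The call of Irf7 was lost without CpG arrays 1, 2 or 3 or untreated arrays 1, 2, 3 or 4 (adjusted p 0.057 to 0.113), and that of Irf1 without CpG arrays 1, 2 or 3 or untreated arrays 2 or 4 (adjusted p 0.0519 to 0.0884). Irf7 also missed the threshold with the pancreas covariate, as given above. Irf8, the factor of dendritic cell and monocyte development, changed by 0.19 (SE 0.23, adjusted p = 0.7). Stat2 rose 3.02-fold (log2 change 1.59, SE 0.23, adjusted p = 0.000163). The feedback inhibitors of cytokine receptors were among the larger rises. Socs3, which shuts off signalling of the IL-6 receptor, read -1.81, -1.77, -1.54 and -2.14 and then 1.55, 1.00, 1.09 and 1.13 (8.05-fold; log2 change 3.01, SE 0.24, adjusted p = 6.96e-07). Socs1, the inhibitor of interferon receptors, read -0.10, 0.92, 0.97 and 0.21 without and 3.01, 2.63, 2.83 and 1.96 with CpG (log2 change 2.11, SE 0.26, adjusted p = 5.21e-05), and its other probe changed by 1.34 (adjusted p = 0.0965). Neither inhibitor's groups overlapped. In the JAK-STAT and SOCS list as a whole 4 of 20 members were higher and 0 lower.

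**Figure D3:**
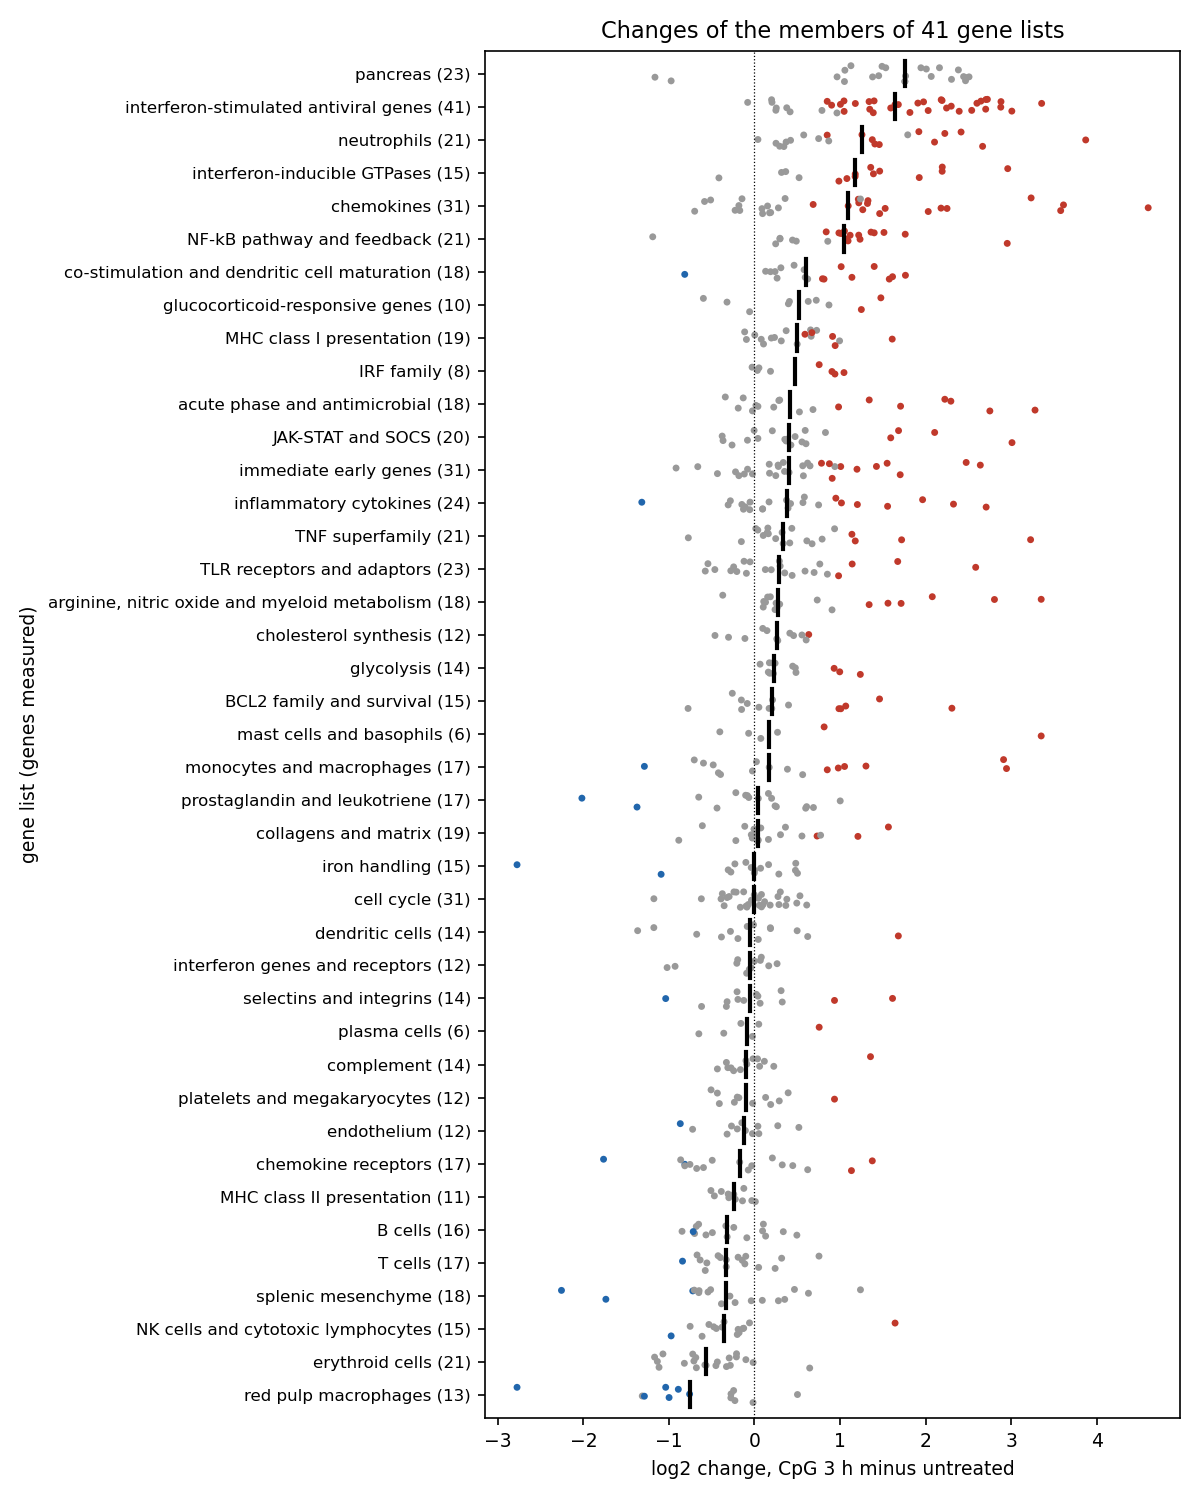
Log2 change between CpG and untreated arrays (x axis) of each measured member of 41 gene lists (rows, with the number measured), ordered by their medians (black bars). Red members were higher, blue lower and grey not called. The interferon-stimulated list has 32 red members of 41, while all 12 members of the interferon genes and receptors and all 23 pancreas genes are grey.

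Chemokines, which guide leukocytes along their gradients, were called higher in 16 of 31 measured members and lower in 0, against 4.89% and 2.71% of all genes. The median change was 1.10. The mean of the list was 0.31, -0.05, 0.00 and -0.03 on the untreated and 1.16, 1.10, 1.12 and 1.04 on the CpG arrays. Ccl4 read -1.27, -2.00, -1.17 and -1.82 without and 3.15, 3.29, 3.34 and 2.37 with CpG. It rose 24.3-fold (log2 change 4.60, SE 0.23, adjusted p = 8.78e-10), and its other probe changed by 2.39. Its neighbour Ccl3, a ligand of Ccr1, read -3.35, -4.39, -3.70 and -3.84 and -0.99, -0.63, -0.06 and -0.67 (log2 change 3.23, SE 0.29, adjusted p = 1.08e-06). Both genes were higher on every CpG array than on any untreated array. The ligands of Cxcr3, the receptor on activated T and NK cells, rose too. Cxcl10 read 3.08, 2.80, 2.38 and 2.53 without and 6.31, 6.51, 6.34 and 6.09 with CpG (12.2-fold; log2 change 3.61, SE 0.24, adjusted p = 3.63e-08). Cxcl9 read 5.36, 4.33, 3.63 and 3.97 and 7.30, 6.19, 6.21 and 6.31 (log2 change 2.18, SE 0.37, adjusted p = 0.000861), with untreated array 1 the highest of its group. The groups of Cxcl9 and Cxcl10 did not overlap. Cxcl11 changed by 1.21 (SE 0.23, adjusted p = 0.00347).

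The ligands of Cxcr2, which call in neutrophils, also rose. Cxcl2 read -0.80, no value, -1.44 and -1.10 without and 1.29, 1.42, 1.20 and 0.64 with CpG (log2 change 2.25, SE 0.32, adjusted p = 0.000221). Cxcl1 read -3.55, -4.66, -4.72 and -4.39 and -2.56, -2.01, -2.40 and -2.22 (log2 change 2.03, SE 0.29, adjusted p = 0.000163), and Cxcl5 changed by 1.32 (adjusted p = 0.00674). Of the monocyte chemoattractants that bind Ccr2, Ccl12 read -0.05, -0.18, -0.51 and -1.20 without and 3.43, 2.72, 2.47 and 3.76 with CpG (11.9-fold; log2 change 3.58, SE 0.37, adjusted p = 6.86e-06). For Cxcl1, Cxcl2 and Ccl12 every CpG array lay above every untreated array with a value. Ccl2 rose 2.40-fold (log2 change 1.27, SE 0.24, adjusted p = 0.00234). Ccl7 changed by 1.33, a call lost without CpG arrays 2 or 3 or untreated arrays 2 or 3 (adjusted p 0.0524 to 0.0689). Other members higher were Ccl17 (1.53), made by dendritic cells, and Xcl1 (1.10), which attracts cross-presenting dendritic cells. The call of Xcl1 was lost without CpG array 4 or untreated array 2 (adjusted p 0.0515 to 0.0694). Further members higher were Cx3cl1 (1.46), Ccl11 (1.22) and Cxcl16 (0.69). Their calls were lost too: that of Cx3cl1 without CpG arrays 1, 2 or 3 or untreated arrays 2 or 4 (adjusted p 0.0502 to 0.0726), that of Ccl11 without CpG array 2 (adjusted p = 0.0609) and that of Cxcl16 without CpG array 3 or untreated array 2 (adjusted p 0.0589 to 0.0607).

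The homeostatic chemokines of the white pulp did not pass. Ccl21a and Ccl19, which hold T cells and dendritic cells in the T zone, changed by -0.23 (adjusted p = 0.651) and 0.28 (0.421). Cxcl12, the ligand of Cxcr4, changed by -0.51 (0.149). Cxcl13, which draws B cells to follicles, read 5.08, 4.87, 3.99 and 4.91 without and 7.13, 5.69, 5.06 and 5.93 with CpG (log2 change 1.24, SE 0.41, adjusted p = 0.0767), so its groups overlapped. Ccl5 stood at 2.37, 2.29, 2.38 and 2.00 and 2.40, 2.76, 2.40 and 2.07, a change of 0.15 (adjusted p = 0.81) with overlapping groups.

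**Figure D4:**
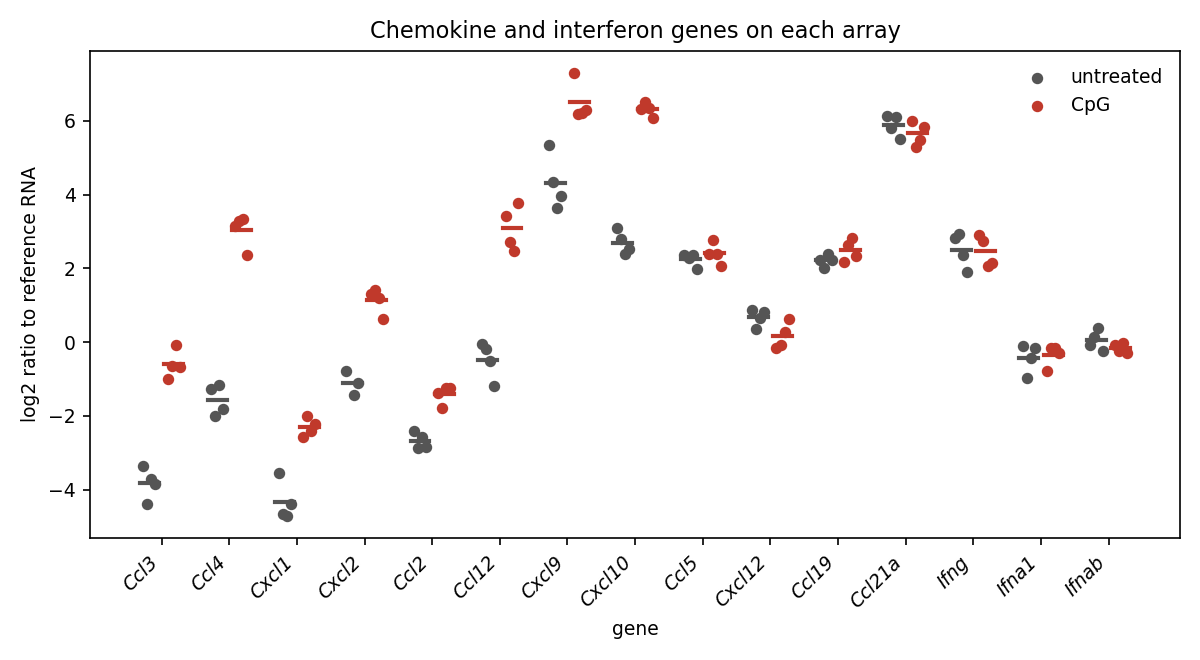
Log2 ratio to the reference RNA (y axis) of 12 chemokine and 3 interferon genes (x axis) on the 4 untreated (grey) and 4 CpG (red) arrays; bars are group means. The 8 genes from Ccl3 to Cxcl10 lie higher on every CpG array than on any untreated array, while the groups overlap for the other 7. Levels of different genes are not comparable, since each is set against its own level in the reference.

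Chemokine receptors were called higher in 2 and lower in 2 of 17 measured members, against 4.89% and 2.71% of all genes. Ccr1, a receptor of Ccl3 on myeloid cells, read 0.38, no value, 0.86 and 0.26 without and 1.67, 1.71, 1.75 and 1.39 with CpG (log2 change 1.13, SE 0.20, adjusted p = 0.0014). Cxcr2, the neutrophil receptor of Cxcl1 and Cxcl2, read 1.09, 1.32, 2.20 and 1.67 and 3.42, 2.71, 2.56 and 3.11 (log2 change 1.38, SE 0.26, adjusted p = 0.00246). The other probe of Cxcr2 changed by 0.82 and did not pass (adjusted p = 0.21). Ccr3, the eotaxin receptor of eosinophils, fell from 3.05, 3.04, 2.23 and 2.78 to 0.91, 0.49, 0.87 and 1.77 (3.40-fold lower; log2 change -1.76, SE 0.27, adjusted p = 0.000384). None of these 3 receptors had overlapping groups, and CpG array 4 kept the highest Ccr3 of its group. Cxcr3 was the other fall (log2 change -0.81, SE 0.23, adjusted p = 0.0344), and its call was lost without CpG arrays 1, 2 or 3 or untreated arrays 1, 2 or 3 (adjusted p 0.0517 to 0.132).

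The regulatory motifs of both arms were looked for in the RefSeq promoters (build GRCm38.p6, 250 bases before to 50 after each start), of which 11893 tested genes had one. The stretches below, upstream of the start, were picked after the search because they hold a match, so that a reader can see the letters. Capitals mark GAAANNGAA, a core of the interferon-stimulated response element, or GGANNTTCC, a kB-type site, on either strand.
Ifit3 (chr19:34583359-34583450, plus strand): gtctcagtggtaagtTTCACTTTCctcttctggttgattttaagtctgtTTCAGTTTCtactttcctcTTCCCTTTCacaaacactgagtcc
Gbp2 (chr3:142620590-142620628, plus strand): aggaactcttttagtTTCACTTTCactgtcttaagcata
Igtp (chr11:58199507-58199545, plus strand): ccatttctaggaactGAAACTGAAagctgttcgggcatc
Cxcl10 (chr5:92349024-92349117, minus strand): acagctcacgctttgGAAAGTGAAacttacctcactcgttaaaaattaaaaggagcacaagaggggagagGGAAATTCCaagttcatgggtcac
Cxcl1 (chr5:90891160-90891198, plus strand): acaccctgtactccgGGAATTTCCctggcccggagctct
Cxcl2 (chr5:90903788-90903826, plus strand): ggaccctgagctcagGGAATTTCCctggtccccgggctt
Il6 (chr5:30013056-30013094, plus strand): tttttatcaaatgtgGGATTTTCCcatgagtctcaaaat
Nfkbia (chr12:55492653-55492840, minus strand): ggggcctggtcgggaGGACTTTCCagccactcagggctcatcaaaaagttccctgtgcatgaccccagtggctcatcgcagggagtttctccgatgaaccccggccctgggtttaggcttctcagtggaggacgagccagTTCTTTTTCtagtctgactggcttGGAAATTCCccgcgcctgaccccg
Ifit3 holds 3 matches of the interferon core, Gbp2 and Igtp hold 1 each, and none of these 3 stretches holds a kB match, although the Gbp2 promoter has 1 just after the start, outside the stretch shown. Cxcl10 holds 1 of each kind, the first starting 213 bases before the start. Cxcl1, Cxcl2 and Il6 hold a kB match alone, and Nfkbia holds 2 kB matches and 1 interferon core. In these 8 stretches no match of one kind overlaps one of the other. Over whole promoters, GAAANNGAA lay in 18.3% of the 596 genes called higher that had a promoter, in 8.79% of 307 called lower and in 8.59% of 10990 not called. GGANNTTCC lay in 7.72%, 4.23% and 5.04% of the same groups. A gene counted where any of its promoters held a match. Among the 11893 tested genes with a promoter the shares were 9.08% and 5.15%. Counted per promoter and not per gene, they were 8.56% and 4.26% of all 32851 promoters. Of 74 named genes called higher with a promoter, 20 held the interferon core, 16 the kB letters and 42 neither, the last including Slfn4, Socs3, Mmp8 and Il1b. Of 29 called lower, 2 held the first, 3 the second and 24 neither. A match of letters is not shown to be a bound site, and these shares were not tested.

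Among secreted cytokines 7 of 24 measured members were higher and 1 lower (median 0.38). Il12b, the p40 chain shared by IL-12 and IL-23, read no value, 0.44, 1.04 and 1.48 without and 4.25, 4.07, 3.45 and 2.99 with CpG (6.53-fold; log2 change 2.71, SE 0.37, adjusted p = 0.000236). Il1b read 2.85, 2.40, 2.81 and 3.10 and 5.05, 4.90, 5.47 and 5.04 (5.01-fold; log2 change 2.33, SE 0.28, adjusted p = 3.08e-05). Il6 read -0.93, -0.98, -1.60 and -1.79 and 1.09, 0.94, 0.93 and -0.40 (log2 change 1.96, SE 0.35, adjusted p = 0.00154), with CpG array 4 lowest. No array of the CpG group reached down to the untreated group for any of these 3. The counter-regulators rose beside them. Il10, which restrains macrophages and dendritic cells, rose 2.94-fold (log2 change 1.56, SE 0.23, adjusted p = 0.000238), and Il1rn, the natural antagonist of the IL-1 receptor, 2.30-fold (log2 change 1.20, SE 0.27, adjusted p = 0.00953). Il12a, the p35 partner chain of IL-12, changed by 1.02 on the probe used (adjusted p = 0.0166) and by -0.23 on its other probe; its call was lost without CpG arrays 2 or 3 or untreated arrays 2 or 4 (adjusted p 0.0508 to 0.0619). Il7, the survival factor of lymphocytes made by stroma, was lower (log2 change -1.32, SE 0.35, adjusted p = 0.0248). Its call was lost without CpG arrays 1 or 2 or untreated arrays 1 or 2 (adjusted p 0.0567 to 0.0705), and without CpG array 2 its change was -0.88 (adjusted p = 0.0672). Il1a, Il15, Il18, Il23a and Il27 did not pass, with changes of 0.37, 0.75, 0.57, -0.11 and -0.15.

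In the TNF superfamily 4 of 21 measured ligands and receptors were higher and 0 lower: Tnf, Fas, Tnfrsf4 and Cd40. With array run as a block, 8 were higher; a run here is a set of neighbouring mAdbID numbers in the titles, and the labels do not say what these numbers stand for. Fas, the death receptor, read 0.31, 0.12, 0.32 and 0.39 without and 2.30, 1.91, 2.20 and 1.61 with CpG, with no overlap (log2 change 1.72, SE 0.23, adjusted p = 0.000104). Cd40, through which T cells license antigen-presenting cells, changed by 1.14 on the probe used (adjusted p = 0.00398), while its other 3 probes changed by 1.45, 1.39 and -0.65. Tnfrsf4, the receptor OX40, changed by 1.18, a call lost without CpG arrays 2 or 3 or untreated arrays 2 or 4 (adjusted p 0.0599 to 0.0774). Lta, the lymphotoxin gene next to Tnf, read 0.95, 0.94, 1.69 and 0.87 and 2.68, 1.40, 2.79 and 1.32 with CpG. Its groups overlapped and it did not pass (log2 change 0.94, SE 0.30, adjusted p = 0.0639).

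The NF-kB pathway was called higher in 14 of 21 measured members and lower in 0 (median 1.05). The mean of the list was 0.86, 0.84, 1.04 and 0.96 on the untreated and 2.20, 2.09, 2.14 and 1.68 on the CpG arrays. Nfkbiz, the nuclear protein that helps NF-kB at secondary targets such as Il6, read -0.85, -1.11, -0.84 and -1.16 without and 2.07, 1.92, 2.00 and 1.87 with CpG. It rose 7.75-fold (log2 change 2.95, SE 0.18, adjusted p = 1.13e-08) with little spread in either group. Tnfaip3, the ubiquitin-editing enzyme A20 that ends NF-kB signalling, read 0.82, 0.78, 1.01 and 0.87 and 2.86, 2.62, 2.69 and 2.35 (log2 change 1.76, SE 0.22, adjusted p = 4.41e-05). CpG array 4 had the lowest level of both after CpG, above every untreated array. Relb, a subunit of the non-canonical branch, changed by 1.40 (adjusted p = 0.00128), Nfkbia, which holds NF-kB in the cytosol, by 1.09 (0.00134) and Zc3h12c, of the regnase family of RNases, by 1.51 (2.26e-05).

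Of the immediate early genes 10 of 31 were higher and 0 lower (median 0.40). Gadd45b, an NF-kB target that limits JNK signalling, read -1.60, -1.37, -1.18 and -1.22 without and 1.61, 1.36, 1.76 and 0.45 with CpG (6.23-fold; log2 change 2.64, SE 0.25, adjusted p = 2.18e-06), lowest on CpG array 4 but with no overlap. Maff, a small Maf factor, changed by 2.47 (adjusted p = 4.48e-06) on the probe used and by 0.68 on its other probe. Junb rose 3.26-fold (log2 change 1.70, SE 0.20, adjusted p = 1.73e-05) and Atf3, a repressor of inflammatory genes, 2.93-fold (log2 change 1.55, SE 0.21, adjusted p = 0.000132). Ier3 changed by 1.20 (adjusted p = 0.000653), but by -0.15 on its other probe.

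The receptor side of the pathway changed in 4 of 23 measured members, all higher, and in 7 with array run as a block. Cd14, the co-receptor that hands ligands to Tlr4 and takes part in uptake of CpG DNA, read -0.74, -1.48, -1.75 and -1.05 without and 0.97, 1.05, 1.74 and 1.57 with CpG (6.00-fold; log2 change 2.59, SE 0.34, adjusted p = 8.61e-05), with no overlap. Tlr2, the lipopeptide receptor, rose 3.19-fold (log2 change 1.67, SE 0.28, adjusted p = 0.000696). Irak3, an inhibitory kinase of the pathway, rose 2.21-fold (log2 change 1.14, SE 0.17, adjusted p = 0.000194) and the adaptor Myd88 1.98-fold (log2 change 0.98, SE 0.15, adjusted p = 0.000339). Tlr9, the receptor of the agent, read 1.50, 0.34, 1.81 and 1.16 and 2.47, 1.64, 1.95 and 2.15. Its groups overlapped and it did not pass (log2 change 0.85, SE 0.31, adjusted p = 0.106). Its adjusted p was 0.0405 with array run as a block and 0.0484 after scaling all arrays to 1 spread, and its other probe changed by -0.05.

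Acute phase and antimicrobial genes were higher in 7 of 18 measured members and lower in 0. Saa3, the serum amyloid A made outside the liver, read -2.51, -2.93, -2.53 and -3.02 without and 0.65, 1.07, 0.86 and -0.45 with CpG (9.70-fold; log2 change 3.28, SE 0.33, adjusted p = 4.43e-06). Hp, haptoglobin, which binds free haemoglobin, read 1.91, 1.94, 2.37 and 2.12 and 4.41, 4.77, 4.34 and 4.00 (log2 change 2.30, SE 0.26, adjusted p = 1.9e-05). Lcn2, which keeps iron from bacteria by binding siderophores, rose 4.67-fold (log2 change 2.22, SE 0.36, adjusted p = 0.000656). Serpina3f, a serine protease inhibitor of a large gene cluster, rose 6.73-fold (log2 change 2.75, SE 0.19, adjusted p = 6.34e-08). Mt2, metallothionein 2, a binder of zinc and copper, read -1.81, -3.41, -3.58 and -3.05 and 0.39, 0.59, 0.71 and 0.10 (10.7-fold; log2 change 3.41, SE 0.43, adjusted p = 5.85e-05). Lipg, the endothelial lipase, read -0.95, -2.10, -2.42 and -2.33 and 1.63, 1.96, 1.75 and 0.13 (9.98-fold; log2 change 3.32, SE 0.35, adjusted p = 7.05e-06), and CpG array 4 was its lowest CpG value. Saa3, Hp, Mt2 and Lipg were each higher on all CpG arrays than on any untreated array. In the complement list Cfb, factor B of the alternative pathway, was the only called gene of 14 (log2 change 1.36, SE 0.21, adjusted p = 0.000377).

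Enzymes of inflammatory metabolism followed, with 6 of 18 higher and 0 lower. Hdc, which makes histamine, read 0.42, no value, 1.22 and 1.10 without and 4.58, 4.22, 4.74 and 3.51 with CpG (10.2-fold; log2 change 3.35, SE 0.38, adjusted p = 2.13e-05). Acod1, which makes itaconate in macrophages, read -2.76, -1.75, -2.17 and -2.29 and 0.74, 0.77, 0.88 and -0.16 (6.99-fold; log2 change 2.80, SE 0.27, adjusted p = 2.38e-06). The groups did not overlap for either enzyme. Hdc also marks mast cells and basophils, whose list had 2 of 6 members higher and 0 lower; the other was Gata2, a transcription factor of these cells, and its call was lost without CpG arrays 1, 2 or 3 or untreated arrays 2 or 4 (adjusted p 0.0507 to 0.105). The part of such cells in the Hdc result was not tested. Nampt, of NAD salvage, rose 3.28-fold (log2 change 1.71, SE 0.24, adjusted p = 0.000133), the mitochondrial superoxide dismutase Sod2 2.95-fold (log2 change 1.56, SE 0.23, adjusted p = 0.000236) and Ch25h, which makes 25-hydroxycholesterol, 2.53-fold (log2 change 1.34, SE 0.24, adjusted p = 0.00134). In glycolysis 3 of 14 members were higher and 0 lower: Pfkfb3, which makes the activator of phosphofructokinase (1.24), the hexokinase Hk2 (1.00) and the factor Hif1a (0.93), with adjusted p of 0.00147, 0.00994 and 0.00487. With array run as a block 6 were higher.

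Neutrophil markers were higher in 11 of 21 measured members and lower in 0 (median 1.26). The mean of the list was 2.72, 2.42, 2.52 and 2.33 on the untreated and 3.61, 4.25, 3.63 and 3.27 on the CpG arrays. Mmp8, the neutrophil collagenase, read 2.59, 1.62, 2.22 and 2.47 without and 6.50, 5.69, 6.49 and 5.70 with CpG (14.6-fold; log2 change 3.87, SE 0.41, adjusted p = 1.07e-05). Il1r2, the decoy receptor of IL-1, read 2.32, 2.72, 2.38 and 2.28 and 4.65, 5.43, 5.82 and 4.47 (6.35-fold; log2 change 2.67, SE 0.28, adjusted p = 6e-06). Both were higher on every CpG array than on any untreated array. Retnlg, a resistin-like secreted protein, rose 5.33-fold (log2 change 2.41, SE 0.38, adjusted p = 0.000404), and the stefins Stfa2 and Stfa3 4.30-fold and 2.65-fold (adjusted p = 9.45e-05 and 0.00049). Some granule proteins that precursors in the marrow make did not pass, and were picked out after their values were seen. Mmp8 and Lcn2 (log2 change 2.22) of the same list rose, so nothing is read about granule proteins as a class. Elane and Mpo, of the primary granules, changed by 0.42 (SE 0.47, adjusted p = 0.667) and 0.25 (0.56, 0.853). Ltf and Camp, of the secondary granules, changed by 0.04 (0.53, 0.981) and 0.29 (0.56, 0.82).

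Markers of monocytes and macrophages went both ways, with 6 of 17 higher and 1 lower. Clec4d, a C-type lectin receptor for mycobacterial glycolipid, read -2.20, -2.70, -3.06 and -2.20 without and 0.76, -0.40, 0.65 and 0.61 with CpG (7.70-fold; log2 change 2.95, SE 0.30, adjusted p = 4.91e-06). Ms4a6d read 1.36, 1.20, 1.13 and 1.76 and 4.86, 4.22, 4.54 and 3.46 (7.52-fold; log2 change 2.91, SE 0.27, adjusted p = 2.32e-06). Neither gene's groups overlapped. Clec4e, the receptor Mincle, changed by 1.30 (adjusted p = 0.000789) and by 0.62 on its other probe. Msr1, a scavenger receptor, changed by 1.05 (adjusted p = 0.00289) but by 0.32 and 0.30 on its other probes. The fall was that of Mrc1, the mannose receptor, from 6.20, 5.93, 5.77 and 5.91 to 4.77, 3.72, 4.74 and 5.42 (2.44-fold lower; log2 change -1.29, SE 0.25, adjusted p = 0.00282), with CpG array 4 nearest the untreated arrays. After scaling all arrays to 1 spread, Mrc1 missed the threshold (adjusted p = 0.0824).

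Red pulp macrophage markers were lower in 6 of 13 measured members and higher in 0, against 2.71% and 4.89% of all genes (median -0.76). The mean of the list was 3.61, 3.51, 3.43 and 3.46 on the untreated and 2.68, 2.22, 2.77 and 3.16 on the CpG arrays, with no overlap. Without CpG array 1 the number called lower was 3. Slc40a1 read 5.65, 5.65, 5.34 and 5.58 without and 2.51, 1.82, 2.94 and 3.85 with CpG. It was 6.84-fold lower (log2 change -2.77, SE 0.38, adjusted p = 0.000118), and CpG array 4 kept the highest level of its group. Mertk, a receptor for the uptake of dying cells, was 2.00-fold lower (log2 change -1.00, SE 0.22, adjusted p = 0.00764). Vcam1, an adhesion molecule of these macrophages and of endothelium, changed by -1.04, and Axl, a relative of Mertk, by -0.76. The call of Vcam1 was lost without CpG arrays 1 or 2 or untreated array 1 (adjusted p 0.0577 to 0.0673), and that of Axl without CpG arrays 1 or 3 or untreated arrays 2 or 4 (adjusted p 0.0562 to 0.0806). Spic, the transcription factor that these macrophages need, did not pass: it read 4.75, 5.34, 4.04 and 4.28 without and no value, 5.32, 5.10 and 4.89 with CpG, with overlapping groups (log2 change 0.50, SE 0.27, adjusted p = 0.304). The iron list as a whole had 0 members higher and 2 lower of 15; the other was Slc48a1, a transporter of haem, whose call was lost without CpG arrays 1, 2 or 3 or untreated array 1 (adjusted p 0.0696 to 0.0825).

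**Figure D5:**
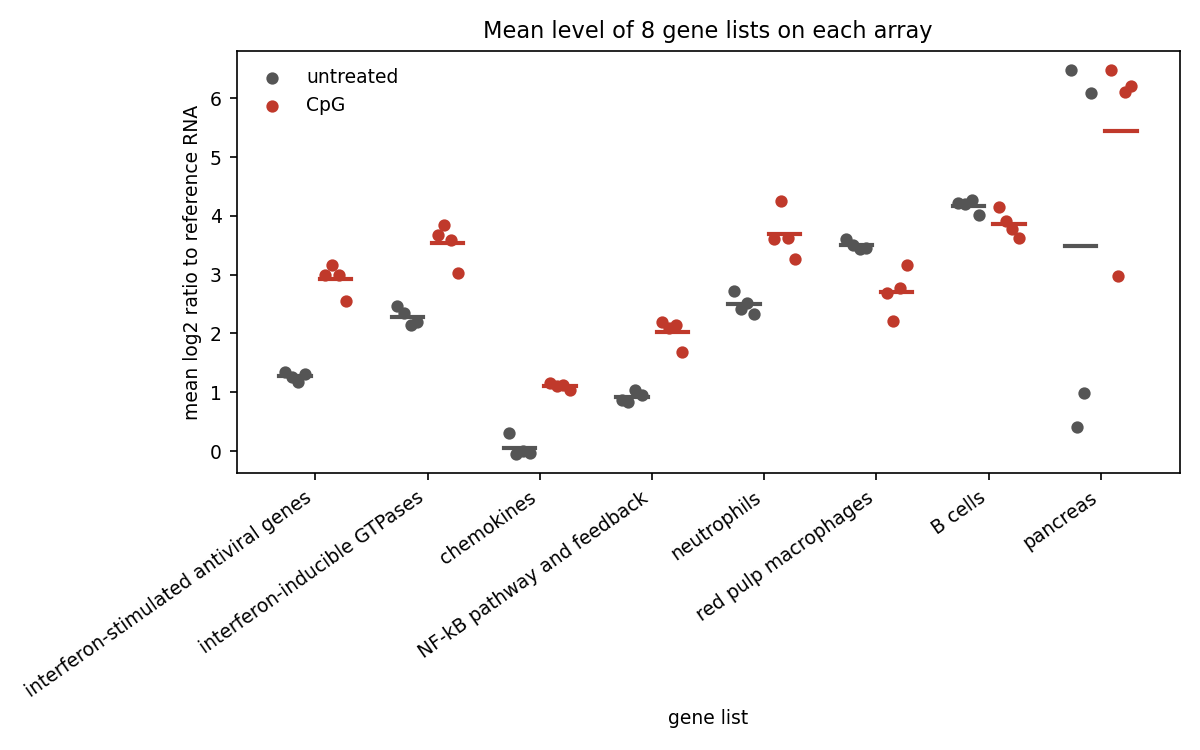
Mean log2 ratio to the reference RNA (y axis) of 8 gene lists (x axis) on each of the 4 untreated (grey) and 4 CpG (red) arrays; bars are group means. The interferon, chemokine, NF-kB and neutrophil lists lie higher and the red pulp macrophage list lower on every CpG array, while the pancreas list ranges from 0.41 to 6.48 among the untreated arrays alone.

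Some genes of stroma fell. In the list of collagens and matrix 3 of 19 members were higher and 0 lower (median 0.04), so the matrix genes named here are single genes. Tcf21, a transcription factor of splenic mesenchyme, read 6.76, 5.62, 6.52 and 6.02 without and 3.80, 3.47, 3.52 and 5.10 with CpG (4.77-fold lower; log2 change -2.26, SE 0.35, adjusted p = 0.000359). Gdf6, a secreted factor of the BMP family, read 2.31, 3.58, 3.22 and 2.88 and 0.27, 0.42, 0.95 and 0.70 (5.32-fold lower; log2 change -2.41, SE 0.39, adjusted p = 0.000526). Id4, an inhibitor of helix-loop-helix factors, read 2.95, 2.25, 2.42 and 1.81 and 0.10, 0.29, 2.10 and -0.01 (log2 change -1.74, SE 0.37, adjusted p = 0.00579), with CpG array 3 inside the range of the untreated arrays. In the mesenchyme list 3 of 18 members were lower and 0 higher, and its median was -0.34. Olfml1, a secreted olfactomedin-like protein, read 1.71, 2.08, 1.64 and 1.93 without and -0.43, -0.51, -0.91 and -0.17 with CpG (5.08-fold lower; log2 change -2.35, SE 0.25, adjusted p = 7.05e-06). Tcf21, Gdf6 and Olfml1 were lower on every CpG array than on any untreated array. Gas1, a surface protein that binds hedgehog ligands, was 4.36-fold lower (log2 change -2.12, SE 0.31, adjusted p = 0.00024). Sned1, a matrix protein, was 5.07-fold lower (log2 change -2.34, SE 0.28, adjusted p = 3.18e-05). Stab2, the hyaluronan receptor of splenic sinus endothelium, was the 1 call among 12 endothelial markers (log2 change -0.87, SE 0.18, adjusted p = 0.00399).

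Some single enzymes fell as well. Hpgd, which inactivates prostaglandins, read 7.84, 6.91, 7.16 and 7.24 without and 5.29, 4.25, 5.01 and 6.52 with CpG (4.05-fold lower; log2 change -2.02, SE 0.36, adjusted p = 0.00146). Ptgis, prostacyclin synthase, read -0.08, -0.25, -0.42 and -0.22 and -1.43, -1.81, -1.34 and -1.89 (2.59-fold lower; log2 change -1.37, SE 0.20, adjusted p = 0.000163). These were the 2 calls among 17 genes of prostaglandin and leukotriene metabolism, whose median was 0.05. In cholesterol synthesis 1 of 12 genes were higher and 0 lower. Acot1, a thioesterase of fatty acyl-CoA, read -0.01, 0.15, -0.40 and -0.50 and -2.89, -2.99, -2.44 and -2.00 (5.23-fold lower; log2 change -2.39, SE 0.23, adjusted p = 3.46e-06). None of these 3 enzymes had overlapping groups, and CpG array 4 had the highest Hpgd and Acot1 of its group. Gpd1, glycerol-3-phosphate dehydrogenase, was 4.37-fold lower (log2 change -2.13, SE 0.37, adjusted p = 0.00125).

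The other large falls were of genes with little known of them in the spleen. Tmem273, a membrane protein, read 2.14, 1.96, 1.90 and 2.02 without and -0.57, -0.74, -0.79 and -0.08 with CpG (5.84-fold lower; log2 change -2.55, SE 0.22, adjusted p = 8.04e-07), with no overlap. Rims3, known from synaptic vesicle release, changed by -2.48 on the probe used (adjusted p = 1.52e-05) but by 0.01 on its other probe. Abcg3, Cmbl, Plekha6 and Gpr34, the last a lysophosphatidylserine receptor of macrophages and microglia, changed by -2.04, -2.02, -1.97 and -1.85, with adjusted p of 0.000132, 1.73e-05, 0.000455 and 0.00202.

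Activation markers of antigen-presenting cells and lymphocytes were higher in 8 of 18 members and lower in 1. Without CpG array 3 the number higher was 4. Cd274, the ligand PD-L1, read 1.19, 0.72, 1.25 and 0.99 without and 2.93, 2.99, 2.77 and 2.52 with CpG (log2 change 1.76, SE 0.23, adjusted p = 7.66e-05). Icam1, the ligand of the integrin LFA-1, read 2.50, 2.34, 2.87 and 2.49 and 4.20, 4.23, 4.02 and 4.20 (log2 change 1.61, SE 0.22, adjusted p = 0.000132). Neither gene's groups overlapped. Cd69, the early activation marker of lymphocytes, changed by 1.58 (adjusted p = 0.014), a call lost without CpG array 3 (adjusted p = 0.0593). Regulators of cell death were higher in 5 of 15 and lower in 0, against 4.89% and 2.71% of all genes. Casp4, which senses cytosolic lipopolysaccharide and is also known as caspase-11, rose 4.95-fold (log2 change 2.31, SE 0.20, adjusted p = 7.06e-07). Bcl2l11, the death-promoting protein Bim, rose 2.09-fold (log2 change 1.07, SE 0.19, adjusted p = 0.00134), while the protective Cflar and Bcl2a1a changed by 1.01 and 0.99 (adjusted p = 0.0119 and 0.00334). Bcl2a1a has near-identical copies, and whether its probe also reads them was not tested.

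In MHC class I presentation 5 of 19 members were higher, led by H2-Q10 (log2 change 1.61, SE 0.31, adjusted p = 0.00317), and leaving out 1 array took the number as low as 1 (CpG array 1, CpG array 3 or untreated array 1), while array run as a block took it to 9. No member of the class II list passed limma's test out of 11 (median -0.24), and 0 had an unadjusted p under 0.05. H2-Aa read 7.99, 8.62, 7.54 and 7.24 without and 7.95, 7.84, 7.26 and 7.13 with CpG, with overlapping groups (log2 change -0.31, SE 0.31, adjusted p = 0.631). The lymphocyte lists had few calls: 1 lower of 16 for B cells (median -0.33), 1 lower of 17 for T cells (-0.33) and 1 higher and 1 lower of 15 for NK and cytotoxic cells (-0.35). Of all genes 4.89% were higher and 2.71% lower. The B cell call was that of Cd37, a tetraspanin, at -0.72, lost without CpG arrays 2, 3 or 4 or untreated arrays 1 or 4 (adjusted p 0.054 to 0.094) and with array run as a block (adjusted p = 0.0725). The T cell call was that of Cd5, which restrains antigen receptor signals, at -0.84, lost without CpG arrays 1, 2 or 4 or untreated arrays 1, 3 or 4 (adjusted p 0.067 to 0.153) and with array run as a block (adjusted p = 0.0624). Those of the NK list were Gzmb, granzyme B (log2 change 1.64, SE 0.41, adjusted p = 0.0188), whose call was lost without CpG arrays 1, 2 or 3 or untreated array 2 (adjusted p 0.0526 to 0.0747), and Klra3, a Ly49 receptor, which was 1.96-fold lower (log2 change -0.97, SE 0.18, adjusted p = 0.00215). None of 31 cell cycle genes (median -0.00245) and none of 21 erythroid genes (-0.57) passed limma's test, and 3 and 3 had an unadjusted p under 0.05.

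By the numbers in the titles, 3 of these assumed runs hold both groups with 1 array each. The difference of CpG from untreated within these runs was 5.11, 4.51 and 5.14 for Ccl4, 3.97, 3.96 and 3.51 for Cxcl10 and 2.96, 3.55 and 3.17 for Ifit3. It was 3.22, 4.27 and 4.88 for Mmp8, 3.03, 3.81 and 3.69 for Tnf, -3.76, -2.40 and -3.14 for Slc40a1 and -2.55, -2.99 and -1.82 for Tcf21. These 7 genes were named for arrays that do not overlap between groups, so the sign of these differences was fixed and is not read. Of 13754 tested genes with values in all 3 runs, 44.5% had 1 sign in every run. Among the 1104 called genes, which were chosen on the same arrays, 1101 had the sign of the whole in every run, so nothing is read from that count.

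The response was then set against those of the other mice, each with its own untreated arrays. Of 14953 genes, 4 differed between control and TNF-KO mice in their response to CpG (0.0268%). Besides Tnf they were Olfml1, which changed by -2.35 in control and 0.14 in TNF-KO mice (difference -2.49, SE 0.35, adjusted p = 0.00965), Kazald1 (-1.41 and 0.33, adjusted p = 0.0346) and Stip1 (1.03 and -0.40, adjusted p = 0.0425). Kazald1 and Stip1 were named after their values were seen. Their differences did not pass in most fits that left out 1 control array, nor with array run as a block (adjusted p = 0.194 for both). The number of differences was 2 without control CpG array 1 or any 1 control untreated array, and 9 without control CpG array 4. Untreated array 4 of the TNF-KO mice stood apart from its group. Its erythroid list mean was 4.21, against 1.82, 1.72 and 1.67 on TNF-KO untreated arrays 1 to 3, and its median r with its group was 0.865. No TNF-KO array was left out in any fit, so the part of this array in the number of differences was not tested. TNF-KO mice had 556 calls of their own (3.72%), of which 507 were higher. The 383 genes called the same way in both make 33.7% of the control calls and 68.9% of the TNF-KO calls. Ccl2 changed by 1.27 in control and 0.17 in TNF-KO mice, Fas by 1.72 and 0.47 and Tcf21 by -2.26 and -0.31, but the test of the difference gave adjusted p of 0.446, 0.397 and 0.397.

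Against BALB/c mice at the same time, 68 of 15219 genes differed in their response (0.447%). The BALB/c untreated and 3 h arrays share an assumed run that holds no C57BL/6 array, and the C57BL/6 labels give no dose. A difference of responses may thus also hold a difference of run or dose, which was not tested. Cxcl11 changed by 4.25 in BALB/c and by 1.21 in C57BL/6 mice (difference -3.03, adjusted p = 0.0011). Ifnab changed by 1.84 in BALB/c and -0.21 here (adjusted p = 0.00106), and Ifi204 by 4.46 and 2.88 (0.00417). Olfml1 changed by -0.66 in BALB/c and -2.35 here (0.00169). The large rises of Ccl4 (5.03 in BALB/c), Cxcl10 (4.46) and Socs3 (3.33) gave no call of difference, with adjusted p of 0.924, 0.742 and 0.951.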

How the data were processed

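RNA of whole spleens was hybridised against a common reference on 50 arrays of 2 colours, of which the 4 untreated and 4 CpG 3 h arrays of C57BL/6 control mice were compared. The values are log2 ratios that the authors deposited. Per the series' design text, the authors corrected background, removed values marked as bad and spots with both signals under 100, took log2 and normalized by lowess, using BRB ArrayTools. A dim spot is therefore a missing value. The sources used here do not give the genome build.

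Each array was centred on its median, and 1 probe per gene was kept (the one with most values). Genes with values on over 70% of the 16 C57BL/6 arrays entered limma (version 3.58.1, R 4.3.3), with Benjamini-Hochberg adjustment over 14953 genes. Each standard error (SE) comes from that fit of all 16 arrays, so the TNF-KO arrays add to the estimate of the spread. A difference of responses is the interaction term. Against TNF-KO mice it came from the same fit. Against BALB/c mice it came from a fit of all 50 arrays in 12 groups, with genes present on over 70% of them. A gene counted as called at an adjusted p under 0.05, and the script was tested on simulated data. List means use members with values on all 16 arrays. Python 3.11.15 made the tables.

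Genes named are the 15 largest rises and 15 largest falls among called genes whose arrays do not overlap, up to 5 members of each of 41 lists by p, and members of the chemokine, cytokine, interferon and TNF superfamily lists. Members and lists were chosen with earlier results of these data known. Alternatives covered centring, scaling, quantile normalization, presence, probe choice, array weights, blocks, a pancreas covariate, the 8 control arrays alone and leaving out each control array. The number of arrays limits the precision.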

Additional observations from a re-analysis of the deposited data

Results flagged for a closer look

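Among 114 sets of 4 arrays given gene by gene, 8 held an array far from its fellows, and chance marks about 1 set in 20. CpG array 4 was apart and lowest of its group for Acod1 (-0.16), Gbp6 (3.52) and Il6 (-0.40). CpG array 3 was apart for Icam1, where it was lowest (4.02), and for Id4, where it was highest (2.10). Clec4d was lowest on CpG array 2 (-0.40), Cxcl9 highest on CpG array 1 (7.30) and Lta highest on untreated array 3 (1.69).

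Of 16 sets of list means, 2 held such an array. The chemokine mean was highest on untreated array 1 (0.31), and the pancreas mean lowest on CpG array 2 (2.98).

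Some responses differed between groups by the interaction test. Control minus TNF-KO mice gave 3.17 for Tnf, -2.49 for Olfml1, -1.74 for Kazald1 and 1.42 for Stip1. C57BL/6 minus BALB/c gave -3.03 for Cxcl11, -2.04 for Ifnab, -1.69 for Olfml1, -1.58 for Ifi204, -1.46 for Hlf and -1.38 for Ptgis. The last 2 differences missed the threshold when some single arrays were left out (adjusted p up to 0.149 for Hlf and 0.0973 for Ptgis).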

How the results depend on the processing

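Among fits with 1 value per gene, no called change of a named gene turned its direction. Of 41 called named genes with another probe tested, 4 had one of the opposite sign (Cd40, Il12a, Ier3 and Rims3), and none of those probes passed. Of 138 named genes that passed, 115 passed under every alternative with 1 value per gene, 9 missed the threshold only when 1 array was left out, 12 both then and under another setting, and 2 (Mrc1 and Nr1d1) only under another setting. Of 34 named genes that did not pass, 7 passed under some alternative, namely Tlr9, Il18 (adjusted p = 0.0384 with arrays scaled to the same spread), Ifnar2 (0.0358 with the pancreas covariate), Lta (0.0172 with array run as a block), Il15 (0.00616), Spic (0.0301) and Cxcl13 (0.0141 with arrays scaled to the same spread). A minimum change of 2-fold left 509 of the 1136 called genes. The other fits with 1 value per gene on all 8 arrays made 1015 to 1546 calls, of which 900 to 1132 were among the 1136. The 8 control arrays fitted alone gave 1075 calls, 951 of them among the 1136. Cd5 (adjusted p = 0.0735), Cxcr3 (0.0902), Gata2 (0.0575) and Il7 (0.059) missed the threshold in that fit. Every probe by itself gave 1565 calls of 23004 probes, and leaving out 1 array gave 761 (without CpG array 2) to 1122 (without CpG array 4). With the mean of a gene's probes, Rims3 changed by -1.24, Maff by 1.58, Ier3 by 0.52, Msr1 by 0.58 and Il12a by 0.39.

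The number of differences from TNF-KO mice, 4 in the fit reported, was 2 with array run as a block and 2 after quantile normalization. It was 7 with array weights and 2 to 9 when 1 control array was left out. The number of differences from BALB/c mice ran from 46 to 93.

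The replicate number as a block gave 1162 calls. Arrays of the same number deviated from their group means with correlations of 0.0112, 0.134, 0.199 and -0.122. Those of different numbers did so with -0.274 to 0.205. These few values cannot settle whether the numbers pair the arrays. With the replicate number as a block, Cxcr3 (adjusted p = 0.0539), the Stip1 difference (0.108) and the Ptgis difference from BALB/c (0.142) missed the threshold. The median SE was 0.216 with 4 arrays a group, and a call needs a change of several SEs. Il15 and Cxcl12 changed by 0.75 and -0.51 and did not pass in the fit reported. A gene that was not called is therefore not shown to be unchanged.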

Other observations

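Output genes of the circadian clock were among the falls. These genes are in no list above and were chosen after their values were seen. The PAR bZIP factors Dbp, Hlf and Tef, which the clock drives, changed by -1.70 (adjusted p = 0.000541), -1.61 (0.00111) and -0.78 (0.0164). Dbp read 0.52, 0.77, 0.68 and 0.75 on the untreated and -0.98, -1.59, -0.59 and -0.93 on the CpG arrays. The clock repressor Per3 changed by -1.10 (0.0107), while Per1, Per2 and the activator Arntl changed by 0.41, 0.42 and 0.26 and did not pass (adjusted p = 0.455, 0.406 and 0.463). Nr1d1, which represses Arntl, changed by -0.68 on the probe used (0.0107) and by -0.13 and -0.47 on its other probes. The call of Tef was lost without CpG array 2 or untreated array 3 (adjusted p 0.0542 to 0.0596). The labels used here give no time of day for either group. In BALB/c mice at the same time Dbp changed by -0.47 and Hlf by -0.14, and the difference of responses had an adjusted p of 0.0591 and 0.0349. Strain, run and dose cannot be told apart in that difference.

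Of 12 Klra genes tested, which encode the Ly49 receptors of NK cells and relatives, 6 were lower and 1 higher, against 2.71% and 4.89% of all genes (median -0.91). The 1 higher was Klra2, at 1.01 (adjusted p = 0.00109). Besides Klra3 and Klra10 (-0.98, adjusted p = 0.0333), the falls were -1.24 for Klra4, -1.20 for Klra16, -1.29 for Klra22 and -1.16 for Klra23, with adjusted p of 0.00346, 0.0076, 0.000411 and 0.00927. The call of Klra10 was lost without CpG arrays 1, 2 or 4 or untreated arrays 1, 2 or 3 (adjusted p 0.0509 to 0.102). The members given were chosen after their values were seen, their sequences are close, and whether the probes read each other's transcripts was not tested. Whether C57BL/6 mice carry every one of these genes was not checked either. The counts are therefore of probes by their names, and a fall under a name may be that of a relative.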
